A study of Bos taurus with 6 samples.

Results

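The insulin-like growth factor (IGF) system was described in cells of the side population (SP) and of the main population (MP) sorted from the endometrium of cows (Bos taurus). Its 10 genes were picked out by symbol, with no threshold on their values: the ligands IGF1 and IGF2, the receptors IGF1R and IGF2R, and the binding proteins IGFBP1 to IGFBP6. Each symbol matched 1 row of the deposited tables, 10 of 34733 named genes in all. SP cells are defined by their ability to pump the DNA dye Hoechst out through membrane transporters, and MP cells are those that keep the dye. There were 3 libraries of poly(A) RNA from each, called SP1 to SP3 and MP1 to MP3 by replicate number. For both populations the labels give healthy luteal-phase uteri collected at slaughterhouses, a collagenase digest that was to yield stromal cells, made from endometrium stripped of its luminal epithelium, and a sort with propidium iodide against dead cells. Cells were stained with Hoechst alone or with verapamil, a blocker of such membrane transporters. The labels tie no library to an animal. The p-values therefore reflect the spread among these libraries alone, which may be technical. The labels also give no antibody gate, so the sorted cells may be of several types.

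IGF1 and IGF2 are small secreted hormones related to insulin. Both act through IGF1R, a receptor tyrosine kinase that signals growth and survival through the phosphoinositide 3-kinase and AKT pathway and through the RAS and ERK pathway. IGF2R, also the cation-independent mannose 6-phosphate receptor, takes up IGF2 for breakdown in lysosomes and carries lysosomal enzymes. The binding proteins hold the ligands outside the cell, where they may prolong their life, keep them from the receptor or, once cut by proteases, release them. In the uterus of cows and other ruminants the stroma is a known source of IGF2 and IGF1, and binding proteins shape how much ligand reaches the early embryo.

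Levels are in FPKM, fragments scaled to the length of the transcript and to all mapped fragments of a library, so genes of unlike length can be set side by side. The files hold no counts. Depth relative to SP1 was read from the most common ratio of low values between SP1 and each library. It was put at 1.61 in SP2, 1.83 in SP3, 2.32 in MP1, 3.22 in MP2 and 2.00 in MP3, so low genes are measured less finely in SP. The 12127 genes that reached 1 FPKM in 3 or more of the 6 libraries were tested with limma on log2(FPKM + 1), and "rose" or "fell" means an adjusted p under 0.05 (Benjamini-Hochberg over all genes tested) in SP relative to MP. All 10 IGF genes were tested, and each reached 1 FPKM in at least 1 library of both populations, so the filter fixed no direction among them. Log2 fold changes refer to FPKM + 1 and so understate the change of low genes.

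Markers of the cell types that such a digest can hold were read first. Over all genes tested 20.5% rose and 18.7% fell in SP, the background for the marker counts. Of 13 fibroblast markers, which should define a stromal preparation, 10 fell in SP, with the direction fixed by the filter for 2 of them (DPT and HAND2), and none rose. The lead marker DCN (decorin) had 126 to 194 FPKM in the SP libraries and 1635 to 6200 FPKM in the MP libraries. The fibroblast markers summed to 2492 to 3494 FPKM in SP and to 5322 to 12772 FPKM in MP, and in SP most of that sum was VIM (vimentin), which other cell types make as well and which was at 1991 to 3195 FPKM. Of 12 endothelial markers 11 rose and none fell, with sums of 1413 to 2150 FPKM in SP and 135 to 820 FPKM in MP. Pericyte and smooth muscle markers summed to 336 to 529 FPKM in SP and 1154 to 1933 FPKM in MP (5 of 9 tested fell, none rose), and leukocyte markers to 110 to 141 FPKM in SP and 329 to 629 FPKM in MP (8 of 10 fell, 5 of the 10 with a direction fixed by the filter). Most of the leukocyte sum in SP was CD14 and CD68, which did not pass, and the other 8 were at or under 1.89 FPKM there. C1QA, a complement gene of macrophages, had 0.193, 0.539 and 1.89 FPKM in SP1, SP2 and SP3, against 115, 105 and 337 FPKM in MP1, MP2 and MP3. Of 8 epithelial markers none passed, and their sum was highest in SP2 and MP2 (1782 FPKM in SP and 4650 FPKM in MP). No listed marker was at 0 in all libraries of a population. The part of these markers in the IGF results was not tested, and in bulk libraries fewer cells of a type and less RNA per cell cannot be told apart.

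**Figure D1:**
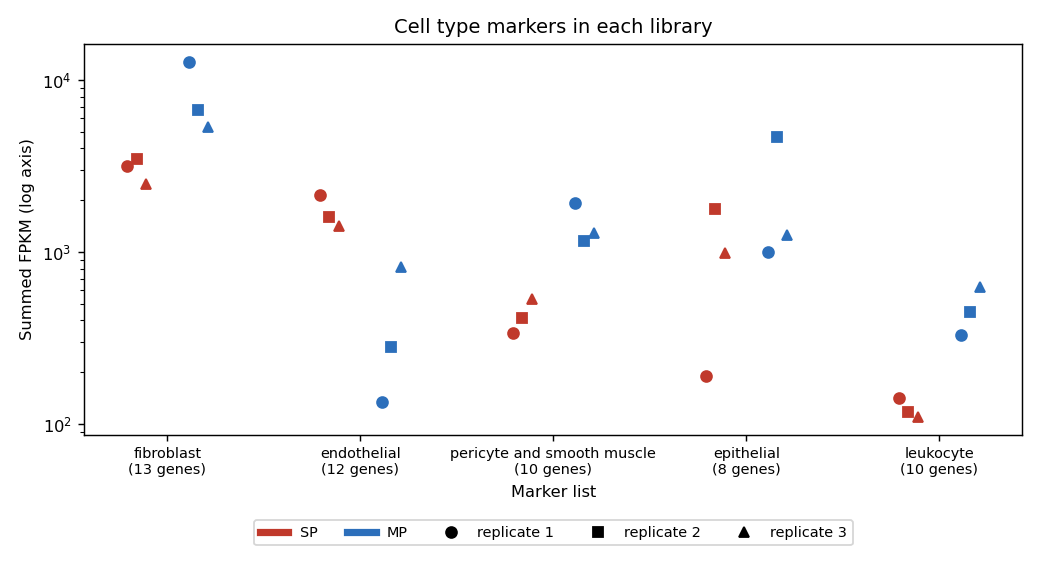
Summed FPKM (log axis) of each marker list in each library, SP left and MP right of each list name, with a symbol for each replicate number. Fibroblast, pericyte and smooth muscle, and leukocyte sums lay lower in all 3 SP libraries, endothelial sums lay higher, and epithelial sums overlapped between the populations.

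Of the 10 IGF genes 1 rose, 6 fell and 3 did not pass. The gene that rose was IGF1R. Those that fell were both ligands and the binding proteins IGFBP2, IGFBP4, IGFBP5 and IGFBP6, while IGF2R, IGFBP1 and IGFBP3 did not pass. Over all genes tested 39.2% were called, 20.5% higher and 18.7% lower in SP, so 52.3% of the calls were higher in SP, against 68.0% of calls after rescaling to a common sum. The median log2 fold change was −1.63 over the 10 IGF genes and 0.01 over all genes tested. In 6 of the 10 the values of the SP libraries lay wholly on one side of the MP values, against 54.8% of all genes tested, so this share was near the background.

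**Figure D2:**
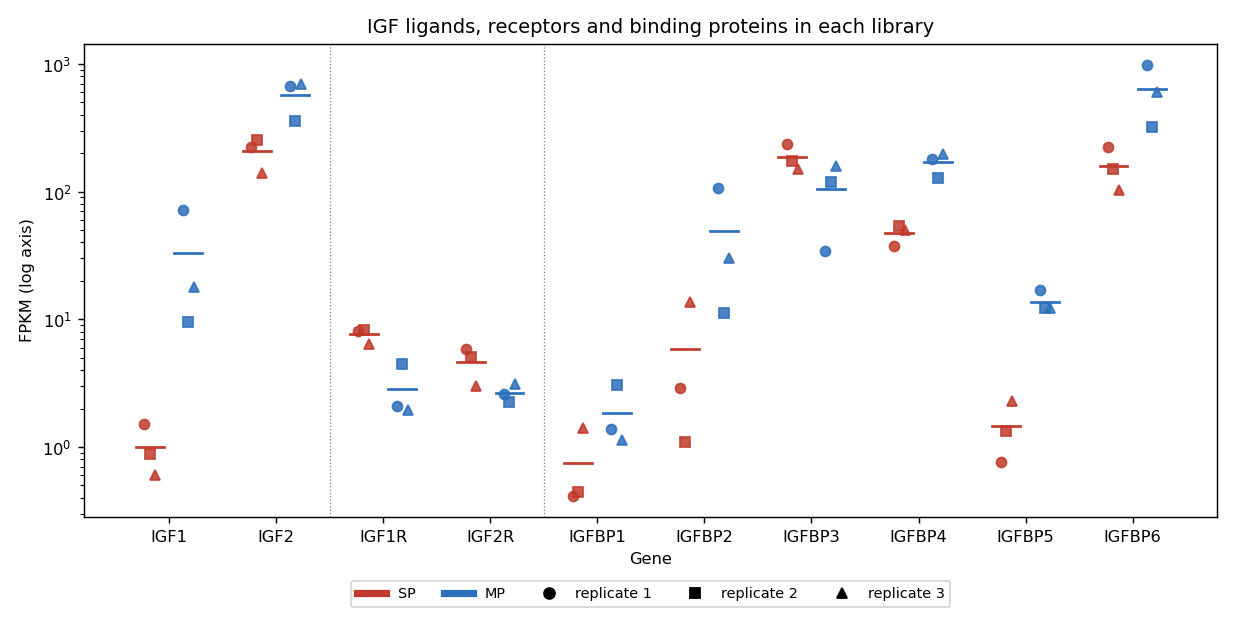
FPKM (log axis) of the 10 IGF genes in each library, SP left and MP right, with a symbol for each replicate number and a bar at the mean of 3 libraries. IGF1 and IGFBP5 show the widest gaps, with SP values at or under 2.31 FPKM and MP values at or over 9.49 FPKM, and IGF1R is the gene whose SP values all lie above its MP values.

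IGF1 (chromosome 5, 66173763 to 66264134, build ARS-UCD1.2) is the ligand made by stromal cells under growth hormone and steroid hormones. In SP it was low, near the 1 FPKM of the filter. It was at 1.51, 0.876 and 0.600 FPKM in SP1, SP2 and SP3, against 71.9, 9.49 and 17.9 FPKM in MP1, MP2 and MP3. The groups did not overlap, and MP1 stood far above the other MP libraries. The means were 0.994 ± 0.464 FPKM over the SP libraries and 33.1 ± 33.8 FPKM over the MP libraries (± SD, n = 3 each), 33.3-fold lower in SP. The log2 fold change was −3.64 ± 0.64 (SE), with limma adjusted p = 0.00611, and only 94 of the 12127 genes tested had a lower one. IGF1 fell in all 19 alternatives tried (limma adjusted p from 0.00405 to 0.0344). Without MP1 its log2 fold change was −2.85, still called. The fibroblast markers summed to 12772, 6703 and 5322 FPKM in MP1, MP2 and MP3, so MP1 was highest for both, while IGF1 was lowest in MP2 and the sum in MP3.

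IGF2, the ligand of fetal and uterine growth (chromosome 29, 49395152 to 49422469), was the highest of the 10 genes in SP by mean and stood second in MP. It was at 224, 253 and 141 FPKM in SP1, SP2 and SP3, against 668, 359 and 697 FPKM in MP1, MP2 and MP3. The groups did not overlap, and MP2 came nearest to SP. The log2 fold change was −1.46 ± 0.35 (SE), with limma adjusted p = 0.0157. The call was lost without MP1 (limma adjusted p = 0.0548), and IGF2 was called in 16 of 19 alternatives, with limma adjusted p between 0.00703 and 0.0978.

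On the FPKM scale IGF2 stood far above IGF1 in every library. IGF1 made up 0.666%, 0.344% and 0.425% of the summed FPKM of both ligands in SP1, SP2 and SP3 and 9.71%, 2.57% and 2.51% in MP1, MP2 and MP3. The share of IGF1 was lower in every SP library than in every MP library (exact two-sided permutation p = 0.1, the smallest that 3 against 3 libraries allow). The ligand sum was 207 ± 58.8 FPKM over the SP libraries and 608 ± 207 FPKM over the MP libraries (± SD, n = 3 each), with log2 difference −1.53, exact two-sided permutation p = 0.1.

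IGF1R (chromosome 21, 7780292 to 8080968), the signalling receptor, rose. It was at 8.12, 8.23 and 6.46 FPKM in SP1, SP2 and SP3, against 2.1, 4.44 and 1.95 FPKM in MP1, MP2 and MP3. The SP values lay close together and above all MP values, of which MP2 was the highest. The means were 7.60 ± 0.993 FPKM over the SP libraries and 2.83 ± 1.39 FPKM over the MP libraries (± SD, n = 3 each), 2.69-fold higher in SP, with a log2 fold change of 1.22 ± 0.29 (SE) and limma adjusted p = 0.0162. The call was lost without SP1, SP2 or MP1 (limma adjusted p = 0.0539, 0.0515 and 0.0524), and IGF1R was called in 14 of 19 alternatives, with limma adjusted p between 0.00975 and 0.117. The endothelial sum was higher in SP as well. Among the MP libraries it was highest in MP3 (820 FPKM), where IGF1R was lowest. Among the SP libraries both were lowest in SP3 (endothelial sum 1413 FPKM). A link between them was not tested.

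IGF2R (chromosome 9, 96197492 to 96300019) was at 5.83, 5.10 and 3.02 FPKM in SP1, SP2 and SP3 and at 2.60, 2.25 and 3.09 FPKM in MP1, MP2 and MP3. SP3 lay within the MP range. The log2 fold change was 0.60, with a 95% interval from −0.02 to 1.22, and did not pass (limma adjusted p = 0.107). With FPKM rescaled to a common sum per library, which moved the median of all genes to 0.19, it passed (log2 fold change 0.80, limma adjusted p = 0.0415). The ratio of IGF2R to IGF1R was 0.718, 0.620 and 0.468 in SP1, SP2 and SP3 and 1.23, 0.507 and 1.59 in MP1, MP2 and MP3, which overlap (exact two-sided permutation p = 0.3).

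**Figure D3:**
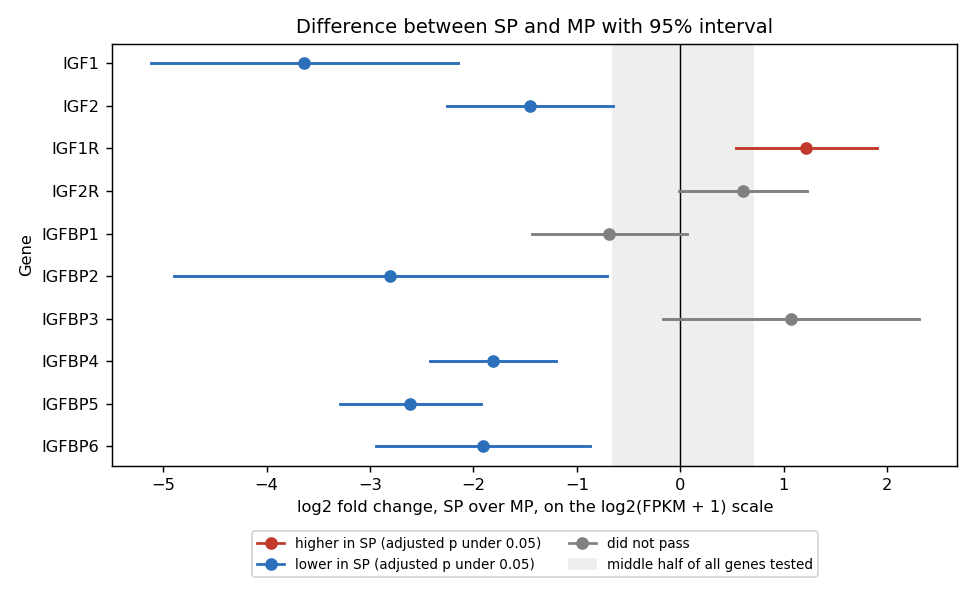
Log2 fold change of SP over MP for the 10 IGF genes with its 95% interval from limma, coloured by call, over a band for the middle 50% of all genes tested (−0.65 to 0.71). IGF1R is the only called gene right of 0, and the intervals of IGF2R, IGFBP1 and IGFBP3 include 0.

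Among the binding proteins IGFBP5 fell with the smallest p. IGFBP5 (chromosome 2, 104656174 to 104680027), a matrix-bound protein of stromal and muscle cells, was at 0.763, 1.34 and 2.31 FPKM in SP1, SP2 and SP3, against 16.8, 12.3 and 12.2 FPKM in MP1, MP2 and MP3. The groups lay far apart and the MP values close together. The fall was 9.34-fold by means, with a log2 fold change of −2.61 ± 0.29 (SE) and limma adjusted p = 0.00173, and it was called in all 19 alternatives.

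IGFBP4 (chromosome 19, 40672668 to 40684257), known as an inhibitor of IGF action until it is cleaved, was at 37.5, 53.9 and 50.2 FPKM in SP1, SP2 and SP3, against 182, 127 and 198 FPKM in MP1, MP2 and MP3. The groups did not overlap. The log2 fold change was −1.81 ± 0.26 (SE), with limma adjusted p = 0.00345, and IGFBP4 was likewise called in all 19 alternatives.

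IGFBP6 (chromosome 5, 26878960 to 26883026), which binds IGF2 in preference to IGF1, was the highest of the 10 genes in MP by mean. It was at 225, 150 and 104 FPKM in SP1, SP2 and SP3, against 972, 321 and 600 FPKM in MP1, MP2 and MP3. Again the groups did not overlap, and MP2 was the lowest of its group. The log2 fold change was −1.91 ± 0.45 (SE), with limma adjusted p = 0.0149, called in 18 of 19 alternatives and lost where SP3 and MP3 were both left out (limma adjusted p = 0.0816).

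IGFBP2 (chromosome 2, 104619961 to 104648632) was the most variable of the binding proteins. It was at 2.92, 1.09 and 13.7 FPKM in SP1, SP2 and SP3 and at 107, 11.2 and 30.1 FPKM in MP1, MP2 and MP3. SP3 lay above MP2, so the groups overlapped (exact two-sided permutation p = 0.2, where 0.1 is the smallest possible). In the fit across all genes it passed with a log2 fold change of −2.80 ± 0.90 (SE) and limma adjusted p = 0.0417. It was called in 9 of 19 alternatives, with limma adjusted p between 0.0241 and 0.230. The call was lost without SP1 or SP2 (limma adjusted p = 0.112 and 0.119) and without MP1 or MP3 (limma adjusted p = 0.114 and 0.07).

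IGFBP3 (chromosome 4, 76116378 to 76124833), the main carrier of IGFs in blood serum, was the only binding protein with a log2 fold change above 0, which did not pass. It was at 235, 173 and 151 FPKM in SP1, SP2 and SP3 and at 34.2, 119 and 160 FPKM in MP1, MP2 and MP3. MP3 lay above SP3 and MP1 far below all other libraries. The log2 fold change was 1.07, with a 95% interval from −0.17 to 2.31 (limma adjusted p = 0.144). Without MP1 it was 0.41, and it passed in none of 19 alternatives (limma adjusted p from 0.0555 to 0.610). Among the MP libraries IGFBP3 and the endothelial sum had the same order, both lowest in MP1 and highest in MP3. Among the SP libraries both were highest in SP1 and lowest in SP3, and a link between them was not tested.

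IGFBP1 (chromosome 4, 76131284 to 76136236), in cows a product of the endometrial epithelium in the luteal phase, was low in all libraries. It was at 0.416, 0.446 and 1.40 FPKM in SP1, SP2 and SP3 and at 1.37, 3.04 and 1.13 FPKM in MP1, MP2 and MP3. The groups overlapped, and the log2 fold change was −0.68 with a 95% interval from −1.44 to 0.07 (limma adjusted p = 0.127). Among the MP libraries it was highest in MP2, which also had the highest epithelial sum there, while among the SP libraries it was highest in SP3 and the epithelial sum in SP2.

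The make-up of the binding protein transcripts also set the populations apart in these libraries. Summed over IGFBP1 to IGFBP6 the level was 502, 380 and 322 FPKM in SP1, SP2 and SP3 and 1313, 594 and 1002 FPKM in MP1, MP2 and MP3 (log2 difference −1.22, exact two-sided permutation p = 0.1). IGFBP6 carried much of this gap. Without it the log2 difference was −0.47, and SP1 lay above MP2, so the groups overlapped. Of the full sum IGFBP3 made up 46.8%, 45.6% and 46.9% in SP1, SP2 and SP3 and 2.60%, 20.0% and 15.9% in MP1, MP2 and MP3. IGFBP6 made up 44.9%, 39.4% and 32.1% in SP1, SP2 and SP3 and 74.1%, 54.1% and 59.9% in MP1, MP2 and MP3. Neither share overlapped between the populations (exact two-sided permutation p = 0.1 for each, the smallest possible). Shares of the same sum depend on each other, so these are not separate results. The larger IGFBP3 share in part restates the lower IGFBP6 and IGFBP4, while the level of IGFBP3 did not pass. The share of IGFBP4 was 12.4% ± 4.34 in SP and 18.4% ± 4.00 in MP, and that of IGFBP2 was 1.70% ± 2.20 in SP and 4.34% ± 3.32 in MP (SD, n = 3 each; exact two-sided permutation p = 0.3 for both). The share of IGFBP5 was 0.407% ± 0.286 in SP and 1.52% ± 0.471 in MP (SD, n = 3 each; exact two-sided permutation p = 0.1). The sums of both binding proteins and ligands were lower in SP. The ratio of the binding protein sum to the ligand sum was 2.22, 1.49 and 2.28 in SP1, SP2 and SP3 and 1.77, 1.61 and 1.40 in MP1, MP2 and MP3, and these overlap (exact two-sided permutation p = 0.3). Without IGFBP6 in the sum the ratio was 1.22, 0.904 and 1.55 in SP1, SP2 and SP3 and 0.460, 0.741 and 0.562 in MP1, MP2 and MP3, which do not overlap (log2 difference 1.05, exact two-sided permutation p = 0.1). IGFBP6 was left out as the binding protein with the highest mean in these data. Its share was larger in every MP library, so leaving it out lowered the ratio more in MP, and the ratio without it is a description only. Beside the ratio without IGFBP6, 11 such sums, ratios and shares were compared, and none can pass an adjustment over them at this number of libraries.

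**Figure D4:**
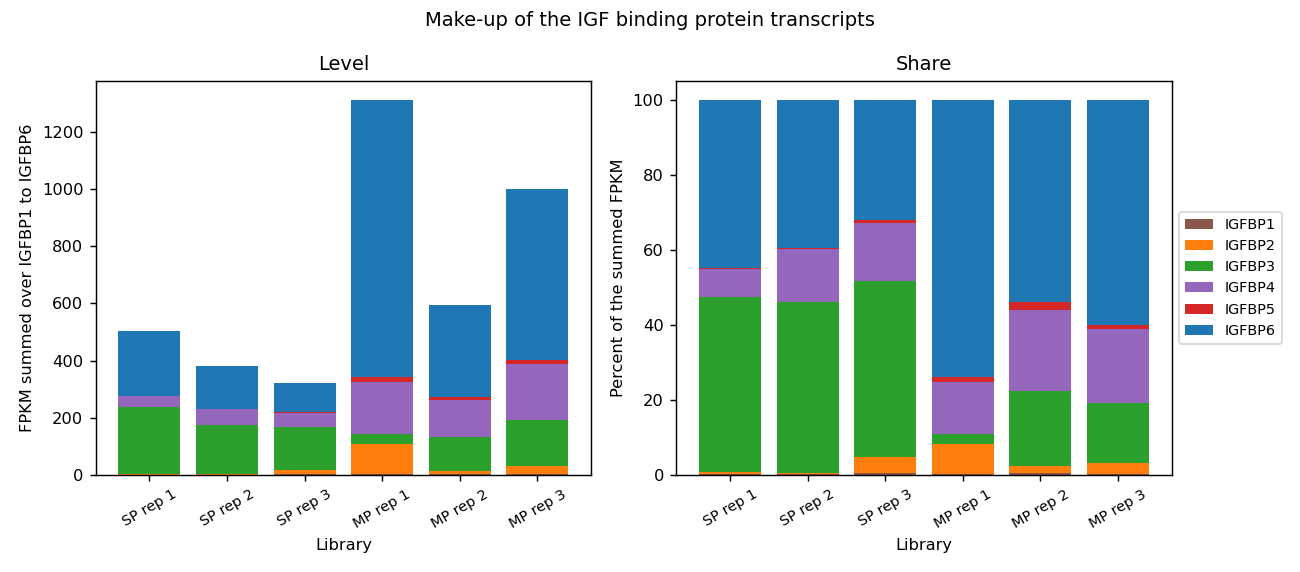
FPKM of IGFBP1 to IGFBP6 stacked by library (left) and as percent of their sum (right), SP libraries left of MP libraries. IGFBP3 takes 45.6% to 46.9% of the sum in SP and 2.60% to 20.0% in MP, and IGFBP6 takes the larger part in every MP library.

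Ordered by mean FPKM, IGF2, IGFBP3 and IGFBP6 led in SP, with ranges that overlapped from each to the next, and IGFBP4 followed below them without overlap. Then came IGF1R, IGFBP2 and IGF2R, again with overlapping ranges, and at the lower end IGFBP5, IGF1 and IGFBP1. In MP the order was IGFBP6 and IGF2, which overlapped, then IGFBP4, IGFBP3, IGFBP2, IGF1 and IGFBP5, each overlapping the next, and last IGF1R, IGF2R and IGFBP1, which also overlapped. IGF1R stood above IGF1 in every SP library and below it in every MP library. Spread within a population was widest for IGFBP2, whose SD was 115% of the mean in SP and 102% in MP, and for IGF1 in MP (102%). It was narrowest for IGF1R in SP (13.1%) and for IGF2R in MP (16%). Of the 6 genes that fell, 5 had their lowest MP value in MP2 and 4 had their highest MP value in MP1. The same shares over all genes that fell were not counted, and a link to the marker sums was not tested.

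The positions of the genes were read from the listed loci, where genes that overlap can be listed with 1 span. IGF1, IGF1R and IGF2R each have the same listed span as 1 or more other genes, so their coordinates may be those of a merged locus. IGFBP2 and IGFBP5 are neighbours on chromosome 2 with a gap of 7541 bases, and both fell. IGFBP3 and IGFBP1 are neighbours on chromosome 4 with a gap of 6450 bases, and neither passed. The insulin gene INS ends 615 bases from IGF2 and is listed at 0 in all 6 libraries. H19, the maternally expressed noncoding RNA that shares an imprinted domain with IGF2 in mammals, was at 3.61, 1.88 and 3.20 FPKM in SP1, SP2 and SP3 and at 54.0, 35.2 and 13.5 FPKM in MP1, MP2 and MP3. It fell with a log2 fold change of −3.01 ± 0.48 (SE), with limma adjusted p = 0.00451. AIRN, which overlaps IGF2R and in mice is its antisense imprinting RNA, is listed at 0 in every library but MP2, where it was at 0.164 FPKM. None of the loci that overlap IGF1, IGF1R or IGF2R reached the filter, and the library kit marks strand, but whether strand was used in counting is not given in the sources used here.

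Around these 10 genes, 122 genes in 8 lists were followed, of which 94 were tested, 32 rose and 16 fell (median log2 fold change 0.45, against 0.01 over all genes tested). That is 34.0% higher and 17.0% lower in SP, against 20.5% higher and 18.7% lower over all genes tested, the background for the counts of each list below. In the fits that left out both libraries of a number, 15 of the 27 pathway genes picked by smallest p lost their call without SP1 and MP1, 20 without SP2 and MP2, and 4 without SP3 and MP3. Directly at the receptor, INSR, the insulin receptor that can pair with IGF1R into a hybrid, was at 44.5, 21.6 and 26.8 FPKM in SP1, SP2 and SP3 and at 5.78, 5.32 and 11.9 FPKM in MP1, MP2 and MP3. INSR rose by 1.90 ± 0.37 on the log2 scale (SE), with limma adjusted p = 0.00824. Among 11 tested genes of the insulin receptor and the adaptors, 5 rose and 2 fell (median 0.81). SOS1 and SOS2, exchange factors that load RAS, had log2 fold changes of 0.96 and 1.08, and GRB10, an adaptor that dampens both receptors, 1.50 (limma adjusted p = 0.0135, 0.0171 and 0.0192). The genes that fell were IRS1 and IRS2, the docking proteins of both receptors. IRS1 averaged 0.505 ± 0.262 FPKM over the SP libraries and 1.61 ± 0.611 FPKM over the MP libraries, and IRS2 0.608 ± 0.175 FPKM over the SP libraries and 2.43 ± 1.22 FPKM over the MP libraries (± SD, n = 3 each). Since neither reached 1 FPKM in SP the filter fixed their direction. They are named here after their values were seen. Neither was called without any 1 SP library, and with 1 MP library left out neither reached the filter. With 1 library left out 1 to 6 genes of the list rose, fewest without SP1. GRB10 lost its call without SP1, MP1 or MP2, SOS2 without SP1, SP3 or MP2, and SOS1 without SP1.

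Of 27 tested genes of the PI3K, AKT and mTOR arm, 8 rose, 4 fell and 15 did not pass (median log2 fold change 0.42). The share called, 44.4%, was near the 39.2% of all genes tested. RICTOR, which defines mTOR complex 2, rose by 2.02 ± 0.28 and PIK3CA, a catalytic PI3K subunit, by 1.75 ± 0.26, while PIK3R2, a regulatory PI3K subunit, had −2.01 ± 0.33 (SE), with limma adjusted p = 0.00307, 0.00385 and 0.00477. FOXO1, a transcription factor that AKT holds out of the nucleus, was at 39.2 ± 10.9 FPKM over the SP libraries and 11.3 ± 5.80 FPKM over the MP libraries (± SD, n = 3 each), with log2 fold change 1.77, limma adjusted p = 0.0101. Of 19 genes of the RAS and ERK arm, 10 rose and none fell (median 0.73), and NF1 among them did not reach 1 FPKM in MP, so its direction was fixed by the filter. RASA1, a brake on RAS, rose by 1.46 ± 0.24, the kinase BRAF by 1.19 ± 0.23 and SPRY1, a feedback inhibitor of receptor tyrosine kinases, by 2.77 ± 0.55 (SE), with limma adjusted p = 0.00491, 0.00759 and 0.00833. Endothelial markers rose in the same comparison, and their part in these counts was not tested. With 1 library left out, 4 to 9 genes of the RAS and ERK arm rose, fewest without SP1, and 4 to 7 rose in the PI3K arm, again fewest without SP1.

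Of the proteases that cut binding proteins and their regulators, 9 of 18 were tested, 2 rose and 4 fell (median log2 fold change −0.84). PAPPA and PAPPA2, well known proteases of IGF binding proteins, were at or under 0.139 and 0.0692 FPKM in every library and were not tested. STC1, a stanniocalcin, whose protein inhibits PAPPA, was at 372, 506 and 223 FPKM in SP1, SP2 and SP3 and at 44.5, 54.1 and 162 FPKM in MP1, MP2 and MP3, and rose by 2.23 ± 0.52 on the log2 scale (SE), with limma adjusted p = 0.0142. HTRA3, a secreted serine protease of stroma, was at 1.22, 1.27 and 1.95 FPKM in SP1, SP2 and SP3 and at 63.4, 29.2 and 40.7 FPKM in MP1, MP2 and MP3, a log2 fold change of −4.14 ± 0.32 (SE), with limma adjusted p = 0.000502. ADAM9, a membrane protease, rose by 1.31, and TIMP1, a protease inhibitor, had −1.39 (limma adjusted p = 0.00521 and 0.00726). The files list TIMP1 and ARAF at the same locus. Without MP2 the call of STC1 was lost (limma adjusted p = 0.052), and genes that fell in this list numbered 2 without SP2. Of 7 tested IGFBP-related proteins, 1 rose and 1 fell: CTGF (log2 fold change 0.93, limma adjusted p = 0.0487, called in 7 of 19 alternatives) and WISP1 (−1.56, limma adjusted p = 0.00854), whose direction the filter fixed. IGFBP7, a related protein of weak IGF binding, had 608 ± 115 FPKM over the SP libraries and 728 ± 138 FPKM over the MP libraries (± SD, n = 3 each), with limma adjusted p = 0.438; it is named here after its values were seen.

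Of 8 tested genes of the growth hormone axis, 5 rose and 1 fell (median log2 fold change 1.19). The gene that fell was the growth hormone receptor GHR, named here after its values were seen, at 0.710, 1.02 and 1.42 FPKM in SP1, SP2 and SP3 and at 10.4, 3.67 and 2.60 FPKM in MP1, MP2 and MP3 (log2 fold change −1.51 ± 0.42 SE, limma adjusted p = 0.0267). Among the MP libraries GHR, like IGF1, was highest in MP1. The kinase JAK2 rose by 2.09, the transcription factors STAT5B and STAT5A by 1.16 and 1.77, and the feedback inhibitor SOCS3 by 1.41 (limma adjusted p = 0.00564, 0.00782, 0.0147 and 0.0266). These signal for many other cytokines as well. Without MP2 the genes of this axis that rose numbered 2, and the call of GHR was lost without MP2 or any SP library. STAT5A was lost without MP1 or MP2 and SOCS3 without SP1, SP2 or MP2. Near IGF2 and among proteins that bind its RNA, 4 of 12 listed genes were tested and 2 fell, H19 and TH (tyrosine hydroxylase, log2 fold change −3.04, limma adjusted p = 0.000656), the direction of TH being fixed by the filter. TH, like WISP1, did not reach the filter with 1 MP library left out. IGF2BP1, IGF2BP2 and IGF2BP3, which bind IGF2 RNA, did not reach the filter. Of 9 genes that share ligands or partners with IGF2R or IGFBP3, CAV1 rose (1.09, limma adjusted p = 0.0349, lost without any 1 library but MP3) and LRP1 and TMEM219, which have been described as receptors of IGFBP3, fell (−1.77 and −1.38, limma adjusted p = 0.00972 and 0.00873).

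**Figure D5:**
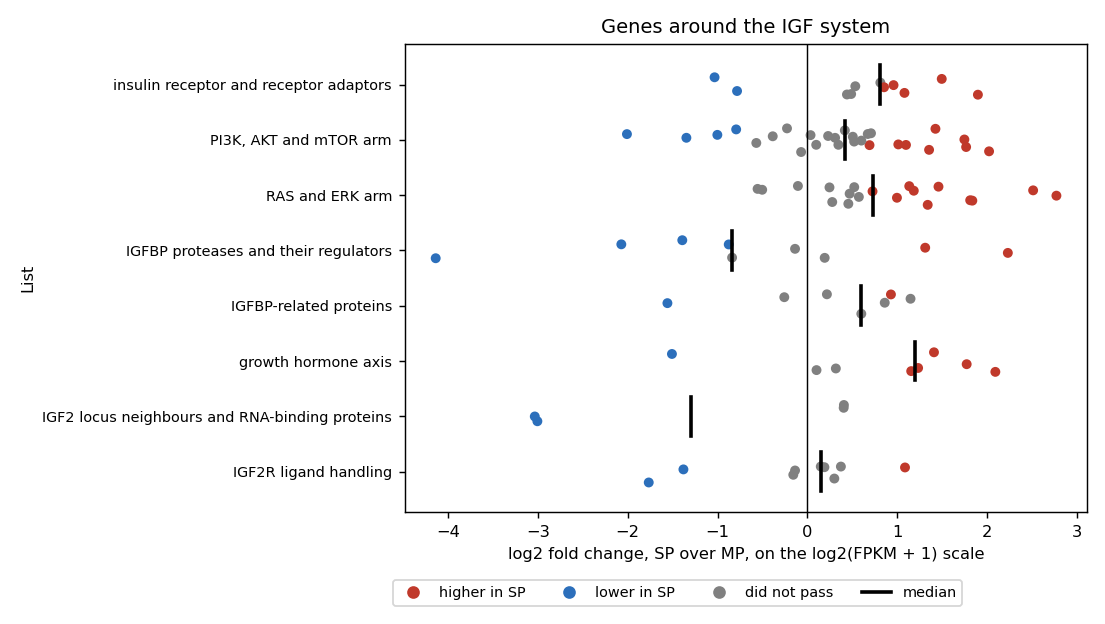
Log2 fold change of SP over MP for the tested genes of 8 lists around the IGF system, 1 point a gene, coloured by call, with a bar at the list's median. Medians lie right of 0 in all lists but the IGFBP proteases (−0.84) and the IGF2 locus list (−1.30). They are highest in the growth hormone axis (1.19) and the insulin receptor and adaptors (0.81). The points near −3 in the IGF2 locus list are H19 and TH.

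For each of the 10 genes the tested genes most like it over the 6 libraries were found by Pearson r of log2(FPKM + 1). The 6 points fall into 2 populations that differ in many genes, so the r is given as a description only. CXXC5 was most like IGF1 (r = 0.998) and C8H9orf40 most like IGF2 (r = 0.996). RFX5 and THBS1, the matrix protein thrombospondin 1, were most like IGF1R (r = 0.996 and 0.995), and PRPF19 and SLC27A4 most like IGF2R (r = 0.987 and 0.985). For the binding proteins they were PROM2 for IGFBP1 (r = 0.986), KCTD17 for IGFBP2 (r = 0.995), TDRP for IGFBP3 (r = 0.989), RPL36A for IGFBP4 (r = 0.996), ORAI3 and S100A12 for IGFBP5 (r = 0.999 for both) and TMEM50A for IGFBP6 (r = 0.997).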

How the data were processed

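RNA was measured in 3 SP and 3 MP libraries, grouped and numbered by their titles. Per the file headers, the values deposited by the authors are FPKM for each library, with no scaling between libraries stated; the word micro stands in the MP column names and not in those of SP. The labels do not explain it, so a handling difference it may mark cannot be told apart from the population. Per the submitters' processing notes, cutadapt 2.5, HISAT2 2.1.0 and build ARS-UCD1.2 were used. Which tool gave the FPKM, and from which annotation, is not given in the sources used here. A few abundant genes can shift the FPKM of all others in a library.

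From these values, all genes that reached 1 FPKM in 3 or more libraries (2 or more where 4 libraries were left) went into a linear model on log2(FPKM + 1), fitted in R 4.3.3 with limma 3.58.1 (moderated, with a mean-variance trend, two-sided, Benjamini-Hochberg adjusted). The fit and the depth estimate were tested on simulated data. Chromosome names came from symbols shared with the gene table of ARS-UCD2.0. A row without a gene name, which held 0.184% to 0.347% of the FPKM sum in SP and 0.743% to 1.91% in MP, was left out. Sums, ratios and shares were compared by exact permutation over libraries. The members and lists were chosen with earlier results of these data known. Named beside the 10 genes were, per list, up to 4 called genes by smallest p (1 of them is not reported here); from each marker list counts and sums and its leading genes; and the genes most alike by Pearson r. Of 122 list genes ADAM28 was not matched. The 19 alternatives changed the pseudocount, filter, scaling, variance model, replicate block or libraries. Depth is an estimate, so no counting intervals are given.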

Additional observations from a re-analysis of the deposited data

How the results depend on the processing

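No IGF gene changed direction in any alternative tried. Of the 7 called genes IGF1, IGFBP4 and IGFBP5 were called in all 19. IGF members that rose numbered 2 with rescaling to a common sum, where IGF2R passed (log2 fold change 0.80), and 0 to 1 when libraries were left out; those that fell numbered 4 to 6 then. Log2 fold changes without a library or a replicate number ran from −1.93 to −1.03 for IGF2, 1.05 to 1.5 for IGF1R, −3.66 to −1.82 for IGFBP2, 0.23 to 1.64 for IGFBP3, −1.11 to −0.29 for IGFBP1, 0.44 to 0.92 for IGF2R and −2.32 to −1.53 for IGFBP6. IGFBP2 lost its call with no filter (−2.80), with rescaling to a common sum (−2.66), with rescaling that set aside mitochondrial and ribosomal protein genes (−2.89) and with array weights (−2.27); the cause was not tested. Genes higher in SP numbered 406 to 2574 and genes lower 706 to 1881 when libraries were left out, against 2490 and 2269. Rescaling to a common sum made 68.0% of all calls higher in SP, against 52.3%.

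Without IGFBP6, which carries much of it, the binding protein sum differed by −0.47 (log2), with overlapping groups, and its ratio to the ligand sum by 1.05. The shares of the rest, SP minus MP, were then −0.27 percentage points for IGFBP1, −11.7 for IGFBP2, 45.3 for IGFBP3, −29.8 for IGFBP4 and −3.51 for IGFBP5.

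The labels do not say that replicate numbers pair the libraries, though the column names of both populations carry the word Stroma with the same numbers (1, 2 and 4). Deviations of same-numbered libraries correlated at 0.105, 0.533 and −0.0854. SP2 and MP2 correlated best with each other, and the other libraries did not correlate best with their own number. Deviations from a mean of 3 libraries depend on each other, so this check cannot exclude pairing. The main fit did not take the numbers as pairs. With the number as a block 2435 genes were higher and 2358 lower in SP, 1 IGF gene rose and 6 fell, and of the 27 pathway genes picked by smallest p CTGF lost its call (0.93, limma adjusted p = 0.0510). Depth limits the values under about 1 FPKM, such as IGF1 and IGFBP1 in SP.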
